A study of Arabidopsis thaliana with 18 samples.

Results

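The genes described here serve protein folding in the endoplasmic reticulum (ER) of Arabidopsis thaliana. They were taken by gene identifier and are 10 of the 33557 genes in the deposited table. They comprise the BiP genes BIP1 (AT5G28540), BIP2 (AT5G42020) and BIP3 (AT1G09080), the transcription factors BZIP60 (AT1G42990) and BZIP28 (AT3G10800), and the lectin chaperones CNX1 (AT5G61790), CRT1 (AT1G56340, CRT1a in RefSeq) and CRT2 (AT1G09210, CRT1b in RefSeq). SHD (AT4G24190), the HSP90 of the ER, and SDF2 (AT2G25110), a partner of BiP, complete the set. RNA came from whole seedlings of the mutant stch4-1, in the Col-0 background, and of wild-type Col-0 (WT). Both were 14 days old and had spent 4 h at 4 °C, and each genotype has 3 libraries. The submitters name 18 samples in 6 groups. The 12 without cold or with a longer cold treatment were not analysed here, so every library used was from cold-treated plants. The labels describe neither the stch4-1 lesion nor how far the samples of a genotype were grown apart, and p-values therefore measure the spread between these samples, which may be technical.

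Proteins of the secretory pathway fold in the ER. BiP, an HSP70, binds unfolded chains with J-domain partners, SHD acts on a subset of clients, and calnexin and the calreticulins hold glycoproteins until they fold. When unfolded proteins build up, BZIP28 leaves the ER membrane and is cut free by Golgi proteases, and the sensor IRE1 splices the mRNA of BZIP60. Both factors then raise the transcription of ER chaperone genes. Values per gene count spliced and unspliced BZIP60 together and do not show whether BZIP28 was cut.

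Promoters are shown first because genes of this response are known to carry shared elements. Windows ran from 250 bases before to 50 bases after the annotated start in RefSeq, assembly TAIR10.1, for 26686 protein-coding genes of the table, all 10 members included. The elements searched, on both strands, were ERSE-I (CCAAT and CACG with 10 bases between), ERSE-II (ATTGG and CCACG with 1 base between), UPRE (TGACGTGG) and the G-box (CACGTG). ERSE-I was in 4 of 10 members and in 0.862% of all windows, and UPRE in 4 of 10 and in 1.54%. ERSE-II was in 1 of 10 members and in 0.0712% of all windows, and the G-box in 6 of 10 and in 7.78%. A match describes letters only, and no match says only that the letters are not in this window. The promoters with ERSE-I before the start follow, as the 250 bases upstream read 5′ to 3′ along the gene, with ERSE-I and UPRE in capitals. All lie on the minus strand, BIP3 at chr1:2931851-2932100, CRT1 at chr1:21092710-21092959 and SHD at chr4:12556059-12556308.
BIP3: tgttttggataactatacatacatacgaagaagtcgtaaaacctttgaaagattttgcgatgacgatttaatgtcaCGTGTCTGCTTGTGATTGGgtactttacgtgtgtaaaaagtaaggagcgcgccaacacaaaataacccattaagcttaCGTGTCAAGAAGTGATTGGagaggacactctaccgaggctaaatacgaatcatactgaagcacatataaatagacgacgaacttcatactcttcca
CRT1: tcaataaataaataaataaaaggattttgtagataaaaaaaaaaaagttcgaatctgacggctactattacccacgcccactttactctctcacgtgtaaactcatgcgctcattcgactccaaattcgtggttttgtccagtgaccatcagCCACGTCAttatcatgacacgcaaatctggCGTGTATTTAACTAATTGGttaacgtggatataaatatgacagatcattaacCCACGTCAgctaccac
SHD: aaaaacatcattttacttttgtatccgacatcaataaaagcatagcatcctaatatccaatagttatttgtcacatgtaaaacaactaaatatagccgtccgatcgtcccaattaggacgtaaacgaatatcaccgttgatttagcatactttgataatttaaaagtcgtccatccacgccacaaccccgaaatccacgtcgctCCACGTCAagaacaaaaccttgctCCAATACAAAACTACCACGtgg

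BIP3 held 2 ERSE-I matches, the upstream one overlapping a G-box. CRT1 held 1 ERSE-I match between 2 UPRE matches. SHD held 1 of each, with its ERSE-I overlapping a G-box next to the start. In BIP2 the ERSE-II match, ATTGGTCCACG, lay at bases 21 to 31 after the start and ran into a UPRE match. CNX1 had its ERSE-I match, CGTGGCCTGTTATGATTGG, at bases 22 to 40 after the start, also overlapping a UPRE match. BZIP60, BZIP28 and SDF2 had a G-box only, and BIP1 and CRT2 had none of the 4 elements.

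**Figure D1:**
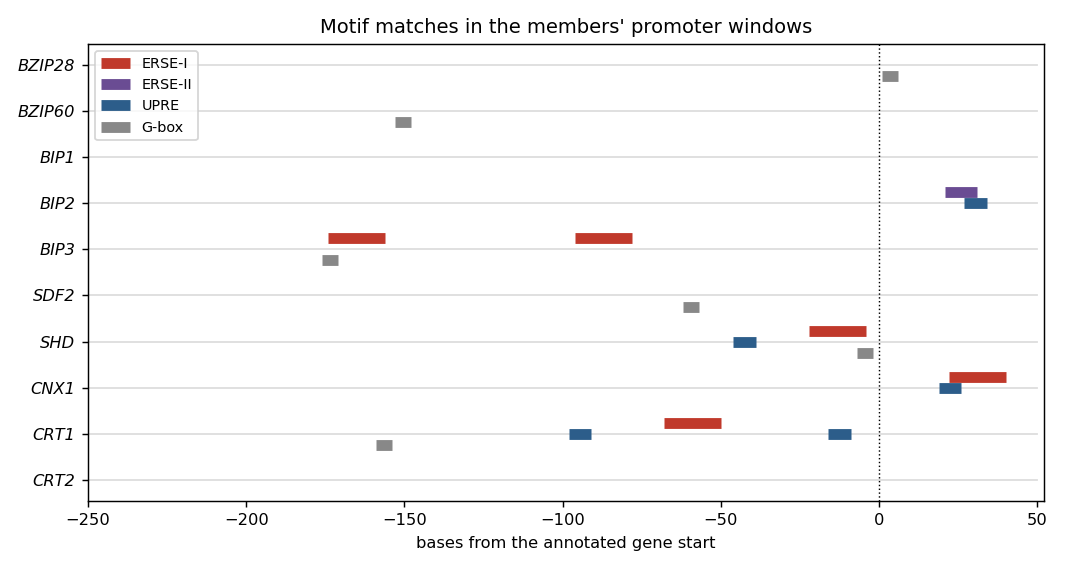
Positions of motif matches in the promoter windows of the 10 members. The x axis is the distance in bases from the annotated gene start, each row is a gene, and marks show ERSE-I, ERSE-II, UPRE and G-box matches on either strand. ERSE-I lies before the start in BIP3, CRT1 and SHD and after it in CNX1.

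Expression is given as FPKM, a fragment number set per kilobase of transcript and per library size. Relative depth, estimated from the steps of low values and set to 1 in the shallowest library, was 1.01 to 1.24 in stch4-1 and 1 to 1.43 in WT. Summed FPKM was higher in every stch4-1 library, 947220 to 987060, than in every WT library, 878390 to 919310. The part of this offset in the members' fold changes was not tested. REIL2 (AT2G24500), the gene that the study's title equates with STCH4, averaged 5.63 ± 0.184 FPKM in stch4-1 and 33.8 ± 2.43 FPKM in WT (SD, n = 3 each, log2 fold change -2.39, limma adjusted p = 1.75e-06). Green shoot markers summed to between 34514 and 45158 FPKM in stch4-1 and between 33369 and 42118 FPKM in WT. By the calls defined below, 0 of 6 were called, beside 32.6% of all genes tested in either direction. Root markers summed to between 1505 and 1554 FPKM in stch4-1 and between 1738 and 1776 FPKM in WT. Of the root markers, 7 of 10 tested were called lower, beside 14.0% of all genes tested. These were PRP3, MRN1, TIP2-3, THAS1, CASP1, SCR and PYK10, with log2 fold changes from -0.70 to -0.18. CASP1 lost its call without stch4-1 a, stch4-1 b, WT b or WT c. Flower and seed markers summed to between 1.11 and 1.96 FPKM in stch4-1 and between 0.859 and 1.37 FPKM in WT. All were too low to be tested, and 1 of 6, the seed albumin gene AT2S3, was listed at 0 in every library. PI, named after its values were seen, had 0.774, 1.38 and 1.11 FPKM in stch4-1, against 0.167, 0.550 and 0.556 FPKM in WT. The genotypes overlapped in the other markers of this list.

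After 4 h in the cold, 8 of the 9 tested members were called higher in stch4-1 than in WT and 0 lower. The 8 called higher were 1.11 to 1.21 times as high as in WT on the FPKM + 1 scale. A gene was called at a Benjamini-Hochberg adjusted p under 0.05 in limma over all 19289 genes with at least 1 FPKM in at least 3 libraries. Of all those genes 32.6% were called, 18.5% higher and 14.0% lower. Among the 9822 genes whose mean lay in the range of the tested members, 9.38 to 99.7 FPKM, 22.0% were called higher. Their median log2 fold change was 0.025, and -0.0070 under quantile normalization. BZIP28, which was not called, set the low end of that range. The lowest called member, SDF2, averaged 43.8 FPKM in stch4-1 and 36.7 FPKM in WT. The share among genes at the level of the called members alone was not computed. The genotypes did not overlap in 8 of the 9 members, with stch4-1 above WT, as in 25.1% of all genes tested. The members' median log2 fold change was 0.19, against 0.0098 over all genes tested. HSP70 and HSP90 genes outside the ER, described below, had a median of 0.21, so a higher median was not particular to the members. In whole seedlings, fewer cells of a type and less RNA per cell cannot be told apart, and the part of the lower root markers in these values was not tested.

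The scaling of the libraries bears on the count. Over all genes tested 3576 were called higher and 2704 lower, and under quantile normalization 2614 higher and 3108 lower. With quantile normalization 3 of 9 members were called higher, BZIP60, SHD and SDF2, beside 13.6% of all genes. The members' median was then 0.11, against -0.012 over all genes tested. Median-ratio scaling gave 3386 genes called higher and 2902 lower over the table. There 8 of 9 members were called higher, and the members' median was 0.18. With the trend in transcript length taken out, 8 members were called higher beside 14.2% of all genes, and with the trend in GC content taken out, 8 beside 17.9%.

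**Figure D2:**
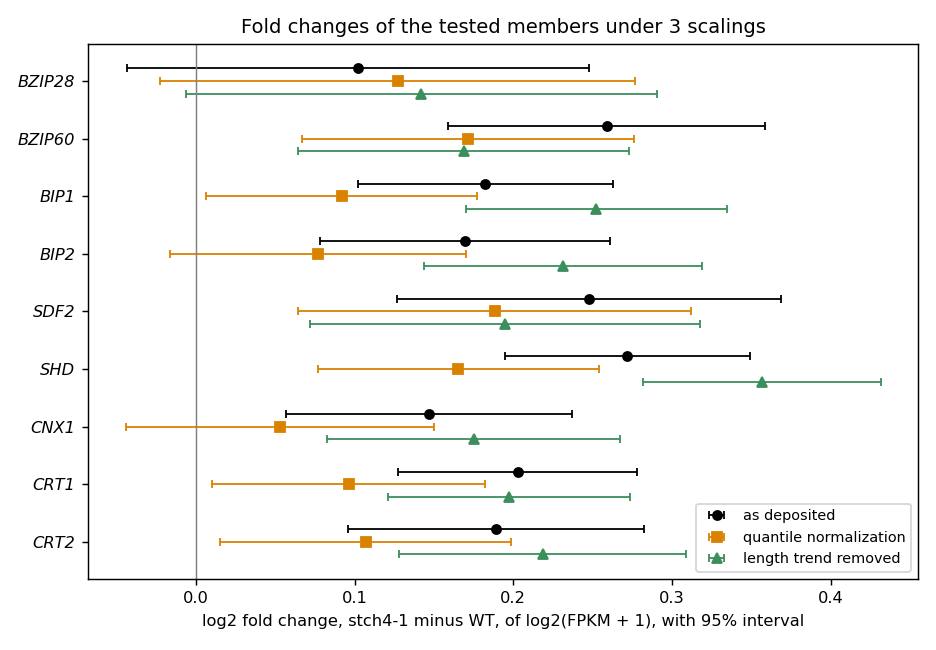
Log2 fold change (stch4-1 minus WT, x axis, log2(FPKM + 1) scale) of the 9 tested members with 95% intervals, for the values as deposited, after quantile normalization and with the length trend taken out. All points lie right of 0, and quantile normalization brings 8 of the 9 closer to it.

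Of the transcription factors, BZIP60 was higher in stch4-1 and BZIP28 did not pass the test. BZIP60 had 65.0, 65.6 and 62.0 FPKM in stch4-1, against 51.8, 52.8 and 55.9 FPKM in WT. Every stch4-1 library was above every WT library (log2 fold change 0.26 ± 0.0432 SE, limma adjusted p = 0.00332). It was still called, at a smaller log2 fold change, under quantile normalization (0.17, adjusted p = 0.024) and with the length trend taken out (0.17, adjusted p = 0.0277). BZIP28, at a lower level, had 9.64, 9.81 and 9.76 FPKM in stch4-1, against 9.71, 8.63 and 8.70 FPKM in WT. WT a reached the stch4-1 range while WT b and WT c lay under it, and the groups overlapped (log2 fold change 0.10, limma adjusted p = 0.249). The 95% interval of that difference, -0.044 to 0.25, does not show that BZIP28 was alike in both genotypes.

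BIP1 and BIP2, the widely expressed BiP genes, were higher in stch4-1. BIP1 had 73.5, 71.1 and 70.2 FPKM in stch4-1, against 63.8, 62.2 and 62.9 FPKM in WT (log2 fold change 0.18 ± 0.0348 SE, limma adjusted p = 0.00587). BIP2 had 66.0, 67.1 and 66.9 FPKM in stch4-1, against 56.9, 59.0 and 61.7 FPKM in WT (log2 fold change 0.17 ± 0.0397 SE, limma adjusted p = 0.0139). The genotypes overlapped in neither gene, but under quantile normalization neither BIP1 (0.092, adjusted p = 0.0987) nor BIP2 (0.077, adjusted p = 0.189) was called. Their transcripts are alike, as 22.9% of the 50-base windows of BIP1 occur in BIP2 and 24.8% of those of BIP2 in BIP1. How reads that match both were divided is not stated, so the split between the genes is uncertain. The ratio of BIP1 to BIP2 was 1.07 ± 0.0338 in stch4-1 and 1.07 ± 0.0517 in WT (SD, n = 3 each).

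BIP3, the BiP gene known for strong induction by ER stress, was very low in both genotypes. It had 0.541, 0.642 and 1.03 FPKM in stch4-1, against 0.329, 0.265 and 0.190 FPKM in WT. All stch4-1 libraries were above all WT libraries, with stch4-1 c the highest. The means were 0.737 ± 0.258 FPKM in stch4-1 and 0.261 ± 0.0698 FPKM in WT (SD, n = 3 each), a ratio of 2.82. These levels amount to an estimated 14.2, 17.3 and 22.7 fragments in stch4-1, against 7.19, 8.26 and 4.89 in WT. BIP3 did not pass the filter on low values. Without that filter its log2 fold change was 0.45 (limma adjusted p = 0.0292). That value is on the log2(FPKM + 1) scale, which understates changes of low genes, and the ratio of 2.82 is of plain FPKM. An exact 2-sided permutation test of its FPKM gave p = 0.1, the smallest that 3 against 3 libraries allow. BIP3 made up 0.531% ± 0.189 of the summed FPKM of the BiP genes in stch4-1 and 0.214% ± 0.0601 in WT (SD, n = 3 each).

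SDF2, which works with BiP and the J-domain protein ERDJ3B, was higher in stch4-1. It had 44.5, 41.8 and 45.1 FPKM in stch4-1, against 38.9, 36.4 and 34.8 FPKM in WT, with no overlap (log2 fold change 0.25 ± 0.0524 SE, limma adjusted p = 0.00913). SHD, an HSP90 needed by CLAVATA signalling, was higher as well. It had 105, 105 and 102 FPKM in stch4-1, against 85.0, 85.1 and 88.1 FPKM in WT, again with no overlap (log2 fold change 0.27 ± 0.0334 SE, limma adjusted p = 0.00086). Both were called under all 15 alternatives tried, SDF2 at 0.19 and SHD at 0.17 under quantile normalization. The ratio of SHD to the sum of BIP1 and BIP2 was 0.755, 0.758 and 0.746 in stch4-1, against 0.705, 0.702 and 0.707 in WT. These ranges did not overlap (exact 2-sided permutation p = 0.1, the smallest possible, in a family of 11 sums and ratios).

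The lectin chaperones, which bind glycoproteins with a trimmed sugar chain, were all higher in stch4-1. CRT1 had 108, 107 and 105 FPKM in stch4-1, against 91.6, 91.8 and 94.5 FPKM in WT (log2 fold change 0.20 ± 0.0327 SE, limma adjusted p = 0.00286). CRT2 had 81.5, 84.5 and 80.3 FPKM in stch4-1, against 69.9, 74.9 and 71.0 FPKM in WT (log2 fold change 0.19 ± 0.0404 SE, limma adjusted p = 0.0095). Neither gene's groups overlapped, and the ratio of CRT1 to CRT2 was 1.30 ± 0.0264 in stch4-1 and 1.29 ± 0.0562 in WT (SD, n = 3 each). CNX1, the membrane-bound lectin, had 67.0, 64.9 and 65.3 FPKM in stch4-1, against 60.0, 56.9 and 60.9 FPKM in WT (log2 fold change 0.15 ± 0.0390 SE, limma adjusted p = 0.0228). Its groups did not overlap, but the call was lost without stch4-1 a (adjusted p = 0.0797), without WT b (adjusted p = 0.0632) and without the eBayes trend (adjusted p = 0.0565). Under quantile normalization CNX1 (0.053, adjusted p = 0.377), CRT1 (0.096, adjusted p = 0.088) and CRT2 (0.11, adjusted p = 0.0772) were not called.

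**Figure D3:**
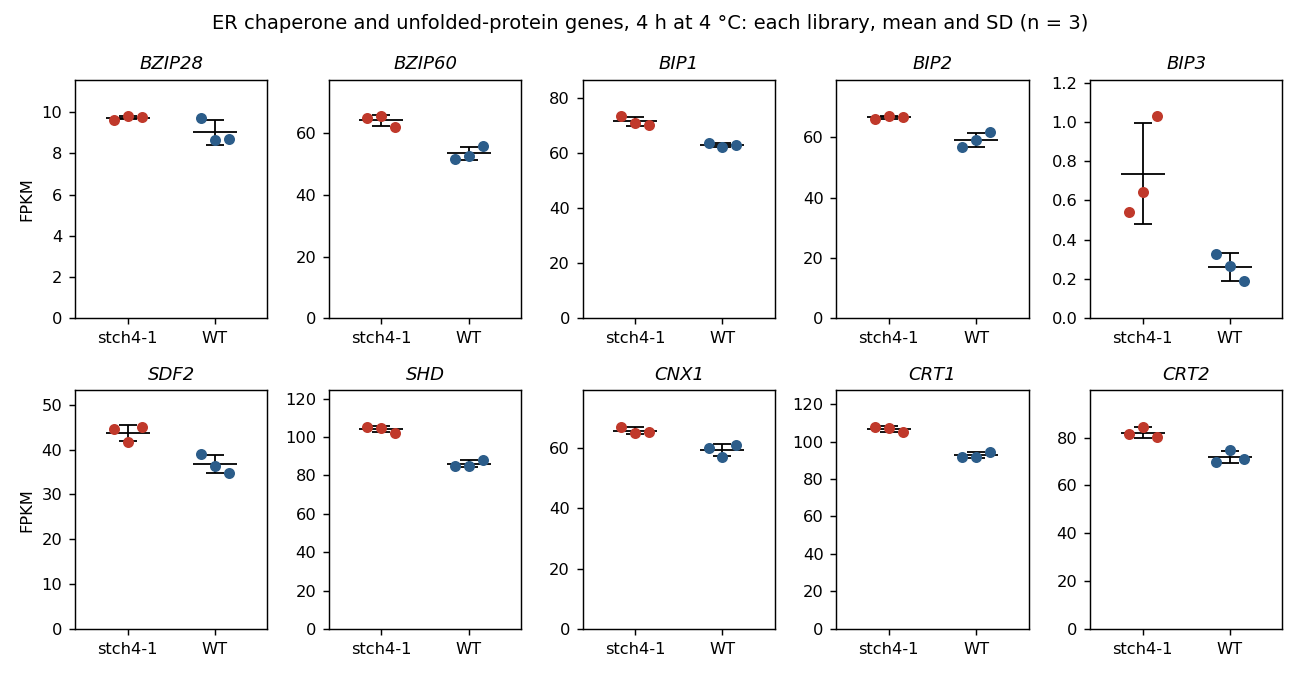
FPKM (y axis, from 0, own scale per panel) of the 10 members in each library after 4 h at 4 °C, stch4-1 left of WT, with mean and SD (n = 3). The genotypes are apart in every panel except BZIP28, and BIP3 does not exceed 1.03 FPKM.

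Per transcript length, the order of levels was nearly the same in both genotypes. In stch4-1 it ran CRT1, SHD, CRT2, BIP1, BIP2, CNX1, BZIP60, SDF2, BZIP28 and BIP3. CRT1 overlapped SHD there, BIP2 overlapped CNX1 and CNX1 overlapped BZIP60. In WT CNX1 stood ahead of BIP2, and theirs was the 1 pair of neighbours that overlapped. The 10 members summed to 621, 618 and 608 FPKM in stch4-1, against 528, 528 and 539 FPKM in WT.

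Other genes of ER folding were counted in lists, with means given ± SD (n = 3 each). Medians of the values as deposited are set against 0.0098 over all genes tested. For medians under quantile normalization that reference was -0.012, and it is not given for the other alternatives. Among BiP's J-domain and exchange partners 2 of 6 were called higher and 1 lower, beside 18.5% and 14.0% of all genes. Their median log2 fold change was 0.16, but 0.080 when genes averaging under 5 FPKM were dropped. ERDJ3B, the partner of SDF2, averaged 39.3 ± 1.71 FPKM in stch4-1 and 32.0 ± 0.685 FPKM in WT (log2 fold change 0.29, limma adjusted p = 0.00242). P58IPK, a J-domain protein of the ER lumen, averaged 30.1 ± 0.771 FPKM in stch4-1 and 24.5 ± 1.37 FPKM in WT (log2 fold change 0.29, limma adjusted p = 0.00447). ERDJ2A, related to Sec63 of the translocation pore, was lower, with 25.0 ± 0.702 FPKM in stch4-1 and 30.2 ± 0.732 FPKM in WT (log2 fold change -0.26, limma adjusted p = 0.00318).

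Protein disulfide isomerases and ER oxidases, which form disulfide bonds in secreted proteins, had 7 of 15 called higher and 0 lower, beside 18.5% and 14.0% of all genes. Their median was 0.15, but 0.091 under quantile normalization and 0.087 with the GC trend taken out. PDIL2-2 averaged 12.7 ± 0.205 FPKM in stch4-1 and 8.81 ± 0.302 FPKM in WT (log2 fold change 0.49, limma adjusted p = 0.000547). ERO1, the oxidase that recharges the isomerases, averaged 4.29 ± 0.405 FPKM in stch4-1 and 3.22 ± 0.404 FPKM in WT (log2 fold change 0.33, limma adjusted p = 0.0413). PDIL1-1 averaged 66.2 ± 2.24 FPKM in stch4-1 and 58.1 ± 1.20 FPKM in WT (log2 fold change 0.18, limma adjusted p = 0.00902), and was not called under quantile normalization (0.091, adjusted p = 0.146). The ERO1 call was lost with any 1 library left out. The count of higher calls was 3 to 4 with any 1 library left out, and under quantile normalization 2, beside 13.6% of all genes.

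Glycan transfer and the calnexin cycle had 2 of 7 called higher and 1 lower, beside 18.5% and 14.0% of all genes, with a median of 0.16. CRT3, a plant-specific calreticulin, averaged 39.5 ± 0.143 FPKM in stch4-1 and 32.7 ± 2.43 FPKM in WT (log2 fold change 0.27, limma adjusted p = 0.00783). STT3A, of the oligosaccharyltransferase, averaged 39.6 ± 1.62 FPKM in stch4-1 and 34.7 ± 1.00 FPKM in WT (log2 fold change 0.18, limma adjusted p = 0.0168). The STT3A call was lost under quantile normalization (0.13, adjusted p = 0.0649) and without WT c, and each left 1 higher call. EBS1, which returns glycoproteins to the lectins by adding glucose, was lower, with 14.1 ± 0.482 FPKM in stch4-1 and 15.9 ± 0.284 FPKM in WT (log2 fold change -0.16, limma adjusted p = 0.0412). The EBS1 call was lost with any 1 library left out, and its sign turned with the length trend taken out (0.046, adjusted p = 0.554).

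In ER-associated degradation, which sends misfolded proteins to the proteasome, 4 of 12 were called higher and 1 lower, beside 18.5% and 14.0% of all genes, with a median of 0.14. OS9, an ER lectin, averaged 19.5 ± 0.827 FPKM in stch4-1 and 15.2 ± 1.30 FPKM in WT (log2 fold change 0.34, limma adjusted p = 0.00753). DER2.1, a derlin, averaged 42.4 ± 1.07 FPKM in stch4-1 and 33.5 ± 1.36 FPKM in WT (log2 fold change 0.33, limma adjusted p = 0.00118). EBS7 (AT4G29960, an uncharacterized protein in RefSeq) averaged 19.1 ± 1.43 FPKM in stch4-1 and 16.1 ± 0.216 FPKM in WT (log2 fold change 0.23, limma adjusted p = 0.0221). It lost its call with the length trend taken out and without stch4-1 a, stch4-1 b, WT b or WT c. MNS5, a mannosidase, was lower, with 8.21 ± 0.364 FPKM in stch4-1 and 9.54 ± 0.271 FPKM in WT (log2 fold change -0.19, limma adjusted p = 0.0401), and kept its call only without stch4-1 c among the fits that left out 1 library. The count of higher calls was 2 without stch4-1 b, without WT b or without WT c.

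Among sensors of unfolded proteins and their downstream factors, 2 of 10 were called higher and 0 lower, a share near the 18.5% of all genes called higher, with a median of 0.022, which was 0.097 with the length trend taken out. BI1, an inhibitor of cell death in the ER membrane, averaged 188 ± 7.22 FPKM in stch4-1 and 141 ± 5.62 FPKM in WT (log2 fold change 0.41, limma adjusted p = 0.000432), and was still called under quantile normalization (0.27, adjusted p = 0.00426). NAC062, a membrane-tethered factor, averaged 54.5 ± 1.94 FPKM in stch4-1 and 48.3 ± 0.646 FPKM in WT (log2 fold change 0.17, limma adjusted p = 0.0126), and was not called under quantile normalization (0.093, adjusted p = 0.145). The genotypes did not overlap in 3 genes with stch4-1 higher and 3 with it lower, beside 25.1% and 22.7% of all genes tested. IRE1A (-0.099), IRE1B (0.023), BZIP17 (0.021) and the proteases S1P (-0.17) and S2P (-0.11), named after their values were seen, were not called.

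Of the ER translocon, 3 of 8 were called higher and 1 lower, beside 18.5% and 14.0% of all genes. Their median was 0.16, but 0.024 under quantile normalization and 0.081 with the length trend taken out. The beta-subunit gene AT2G45070 averaged 246 ± 34.2 FPKM in stch4-1 and 181 ± 23.8 FPKM in WT (log2 fold change 0.44, limma adjusted p = 0.021). A gamma-subunit gene, AT4G24920, averaged 174 ± 1.96 FPKM in stch4-1 and 151 ± 11.2 FPKM in WT (log2 fold change 0.20, limma adjusted p = 0.021), and AT2G34250, of the SecY family, averaged 178 ± 0.253 FPKM in stch4-1 and 159 ± 6.02 FPKM in WT (log2 fold change 0.16, limma adjusted p = 0.0126). AT5G60460, another beta-subunit gene, was lower, with 17.0 ± 3.46 FPKM in stch4-1 and 23.1 ± 2.51 FPKM in WT (log2 fold change -0.43, limma adjusted p = 0.0382), and kept its call only without stch4-1 c among the fits that left out 1 library. Under quantile normalization AT2G45070 (0.30, adjusted p = 0.0512), AT4G24920 (0.049, adjusted p = 0.522) and AT2G34250 (0.0012, adjusted p = 0.984) were not called, and the 1 higher call was AT3G60540, named after its values were seen (0.63, adjusted p = 0.0464). AT2G45070 also lost its call without stch4-1 a, WT a or WT c, AT4G24920 without WT b or any 1 of the stch4-1 libraries, and AT2G34250 without WT c. The count of higher calls was 1 without stch4-1 a.

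**Figure D4:**
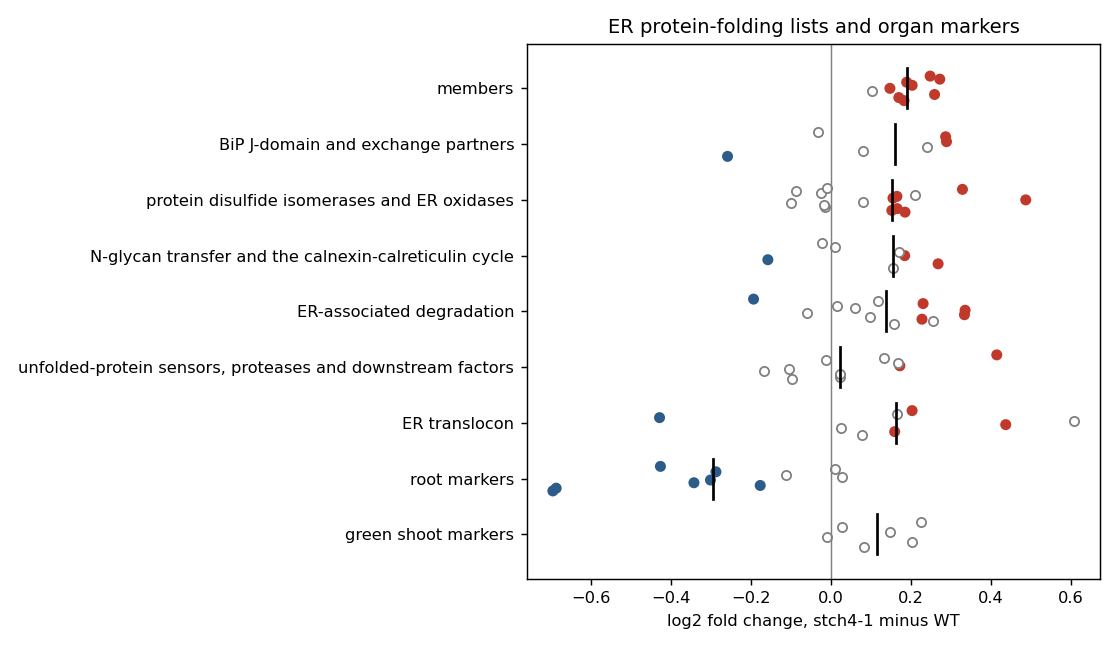
Log2 fold change (stch4-1 minus WT, x axis) of each tested gene in the lists on the y axis, with called genes filled, genes not called open and a bar at the median of each list. The members' median is 0.19 and that of the root markers -0.30.

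HSP70 and HSP90 genes of other compartments were set beside their ER relatives. Of 14 such genes 8 were called higher and 0 lower, beside 18.5% and 14.0% of all genes, with a median of 0.21. Under quantile normalization the median was 0.090, against -0.012 over all genes tested. There 7 of the 14 were called higher, beside 13.6% of all genes, and 2 lower, beside 3108 of 19289 genes. HSP90-1, a heat-inducible HSP90 of the cytosol, averaged 8.30 ± 0.298 FPKM in stch4-1 and 4.69 ± 0.0979 FPKM in WT (log2 fold change 0.71, limma adjusted p = 0.000228). The cytosolic HSP90-2 averaged 143 ± 2.55 FPKM in stch4-1 and 115 ± 4.41 FPKM in WT (log2 fold change 0.32, limma adjusted p = 0.000799) and HSP90-3 101 ± 3.005 FPKM in stch4-1 and 82.7 ± 1.37 FPKM in WT (log2 fold change 0.28, limma adjusted p = 0.000978). HSP90-5 of the plastid averaged 98.8 ± 2.41 FPKM in stch4-1 and 80.9 ± 2.12 FPKM in WT (log2 fold change 0.28, limma adjusted p = 0.00104). Among HSP70 genes of the cytosol, HSP70-4 averaged 14.4 ± 0.497 FPKM in stch4-1 and 9.62 ± 0.124 FPKM in WT (log2 fold change 0.54, limma adjusted p = 0.00032), HSC70-1 696 ± 15.9 FPKM in stch4-1 and 560.0 ± 25.9 FPKM in WT (log2 fold change 0.31, limma adjusted p = 0.0014) and HSP70-2 10.5 ± 0.414 FPKM in stch4-1 and 8.22 ± 0.371 FPKM in WT (log2 fold change 0.31, limma adjusted p = 0.00664). HSP70-7 of the plastid averaged 158 ± 2.21 FPKM in stch4-1 and 143 ± 0.838 FPKM in WT (log2 fold change 0.14, limma adjusted p = 0.0109), and was not called under quantile normalization (adjusted p = 0.975). The calls of HSC70-1, HSP90-2, HSP90-3 and HSP90-5 held there at smaller log2 fold changes, 0.15, 0.19, 0.18 and 0.19. The 6 genes not called were HSP70-3 (0.075) and HSP90-4 (0.030) of the cytosol, HSP70-6 (-0.076) of the plastid, and HSP90-6 (-0.11), HSP70-9 (-0.089) and HSP70-10 (0.039) of the mitochondrion, named after their values were seen, each with its log2 fold change. HSP70-6 (-0.19, adjusted p = 0.00759) and HSP70-9 (-0.16, adjusted p = 0.0296) were the genes called lower under quantile normalization. Of the 50-base windows of HSP90-2, 16.2% occur in HSP90-3, and 17.3% of those of HSP90-3 in HSP90-2. HSP90-4 holds 10.2% of the windows of HSP90-2 and 14.7% of those of HSP90-3. The split among HSP90-2, HSP90-3 and HSP90-4 is therefore uncertain. Differences between compartments were not tested.

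**Figure D5:**
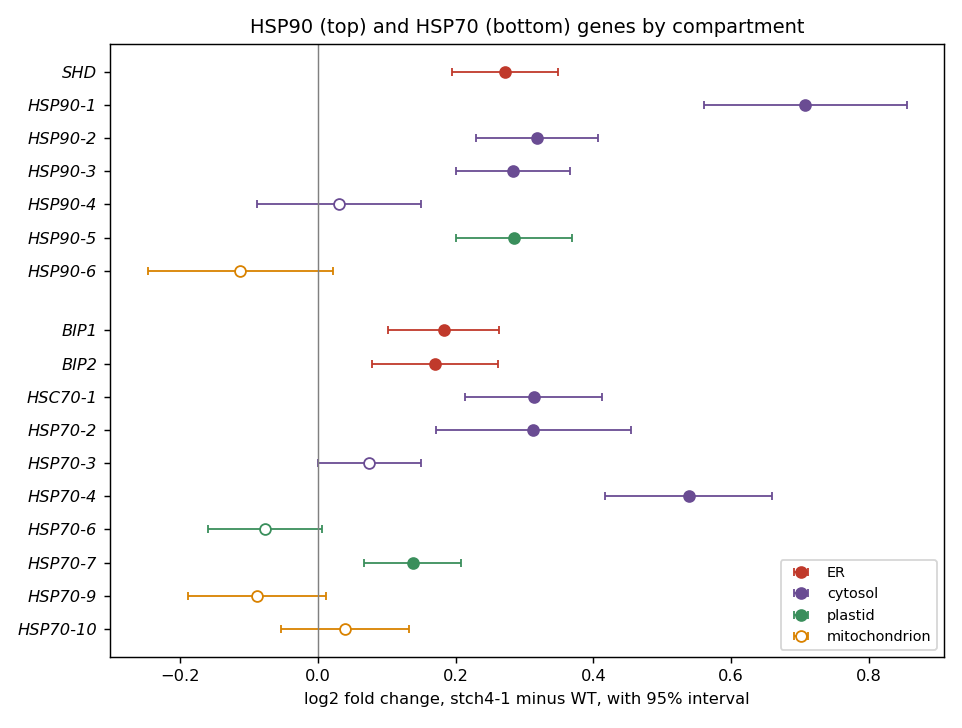
Log2 fold change (stch4-1 minus WT, x axis) with 95% interval for HSP90 genes (top) and HSP70 genes (bottom), coloured by compartment; filled points were called and open points were not. The ER genes BIP2, BIP1 and SHD lie at 0.17, 0.18 and 0.27, and the cytosolic HSP90-1 at 0.71.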

How the data were processed

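RNA was isolated with Trizol, treated to remove DNA and sequenced on an Illumina HiSeq, per the labels' protocols. The values are FPKM, deposited by the authors as 1 table of 33557 genes by 6 libraries. TopHat2, Cufflinks and TAIR10 are listed in the submitters' processing notes, without versions; strand setting, filters and the division of multi-mapped reads are not stated. Column names give genotype and time but count libraries from 0 and the titles from 1, so libraries are called a, b and c in table order.

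Values were taken as log2(FPKM + 1), a scale that understates changes of low genes, and compared with limma 3.58.1 (R 4.3.3): 1 mean per genotype, eBayes with an intensity trend, 2-sided, Benjamini-Hochberg over the 19289 genes with at least 1 FPKM in at least 3 libraries. FPKM holds no total count, so depth was estimated from the steps of values under 0.6 FPKM.

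RefSeq annotation on TAIR10.1 held 32810 of the identifiers, 32802 with an exon length. Promoters were read by gene identifier from that assembly's genome and annotation, since the deposited table was used by identifier alone; they replace the sequence tables that had been planned, and protein identity was not computed. The members and lists were chosen with earlier results of these data known. Named are all members, REIL2, in each other ER list up to 3 called genes with the largest and up to 3 with the smallest log2 fold change of that sign, called HSP70 and HSP90 genes of other compartments, and called markers. Alternatives were a pseudocount of 0.1, no filter, a mean of at least 5 FPKM, quantile normalization, median-ratio scaling, no eBayes trend, the length trend taken out and each library left out; taking out the GC trend and a block for the number in the column name were added after seeing the data.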

Additional observations from a re-analysis of the deposited data

How the results depend on the processing

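The log2 fold changes of the 9 tested members were positive under all 15 alternatives. BZIP60, SDF2 and SHD were called, and BZIP28 was not, under each of them. Quantile normalization gave 3 members called higher in place of 8 and a median of 0.11; BIP1 at 0.092, BIP2 at 0.077, CRT1 at 0.096, CRT2 at 0.11 and CNX1 at 0.053 were then not called. CNX1, at 0.15, was not called without the eBayes trend either, and lay between 0.12 and 0.17 with 1 library left out. In those fits 7 to 8 members were called. Over all genes tested, 3576 were called higher and 2704 lower, against 2614 and 3108 under quantile normalization.

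Over the table, higher calls were 13.6% of genes under quantile normalization, 14.2% with the length trend and 17.9% with the GC trend taken out. They numbered 3409 over genes of at least 5 FPKM and 2628 to 3260 with 1 library left out. Lower calls numbered 3108 under quantile normalization, 2532 with no filter and 2768 without the eBayes trend. With the length trend taken out they numbered 2308, with the GC trend 2883, and with 1 library left out 1826 to 2273. Higher calls among disulfide isomerases and oxidases were 2 under quantile normalization, 4 with the length trend taken out and 3 to 4 with 1 library left out. In the glycan list they were 1 under quantile normalization, 4 over genes of at least 5 FPKM, 4 with the length trend and 4 with the GC trend taken out, and 1 to 3 with 1 library left out; its lower call went to 0 with either trend taken out and in every fit with 1 library left out. In degradation, higher calls were 2 to 5 and lower calls 0 to 1 with 1 library left out, and lower calls 0 with no filter or the length trend taken out. Sensors had 1 higher call under quantile normalization. The translocon had 1 higher call under quantile normalization, 1 with the length trend taken out and 1 to 3 with 1 library left out; its lower calls were 0 with no filter or without the eBayes trend and 0 to 1 with 1 library left out. Quantile normalization gave 2 lower calls among other HSP70 and HSP90 genes and 1 among green shoot markers. It turned CDC48A to -0.11 and RCA to -0.19, and taking out the length trend turned EBS1 to 0.046. The cause of these shifts was not tested.

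In the 250 bases before the start alone, ERSE-II was in 0 members and UPRE in 2, since the other matches lie after the start. The columns are numbered alike in both genotypes, but not as the titles are, and nothing says that a number marks plants grown together. Over the genes tested, deviations of same-numbered libraries from their genotype means had Pearson correlations of 0.053, -0.13 and -0.036, and not every library correlated best with its own number. With this number as a replicate block, the same 8 members were called, and 3017 genes were called higher and 2063 lower over the table. Higher calls among disulfide isomerases and oxidases were then 2, and lower calls 0 in each of the glycan, degradation and translocon lists. BIP3 is limited by depth, and its difference on the log2(FPKM + 1) scale lay between 0.34 and 0.53 with 1 library left out.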

Other observations

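Outside the members and the gene lists, 188 tested genes had ERSE-I in the promoter window. Of these 20.7% were called higher and 9.04% lower in stch4-1, beside 18.5% and 14.0% of all genes tested, with a median log2 fold change of 0.034 beside 0.0098. UPRE, in 356 tested genes outside the lists, went with 19.4% higher and 17.4% lower and a median of -0.0046, and the G-box, in 1670, with 22.5% higher and 13.4% lower and a median of 0.028. ERSE-II, in 15, went with 1 gene called higher, 3 called lower and a median of -0.13. These shares are descriptions with no test.

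UTR3 (AT1G14360), annotated as a UDP-galactose transporter, is among the 4 genes with ERSE-I outside the lists that had the largest called increases, and was singled out after its values were seen. The others were AT5G63500, a putative transmembrane protein (log2 fold change 0.54), AT1G56045, of the ribosomal protein L41 family (0.49), and AT1G09995, annotated as a DNA repair helicase (0.43). UTR3 was shown alone. Its values were 14.6, 14.9 and 15.9 FPKM in stch4-1, against 10.1, 11.0 and 10.5 FPKM in WT, with no overlap (log2 fold change 0.49, limma adjusted p = 0.000772).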
